A study of Rattus norvegicus with 12 samples.

Results

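The antioxidant genes of the NRF2 response were followed in rat neural stem cells, dividing precursor cells from which neurons and glia arise. The set held 9 gene symbols: Nfe2l2, Hmox1, Nqo1, Gclc, Gclm, Txnrd1, Srxn1, Gsr and Prdx1. Every probe set to which the array's annotation gave one of these as its only symbol was taken, which gave 12 probe sets for 8 of the 9 genes, among 14217 genes with a probe set of their own. The only probe set that carries the symbol Prdx1 carries a second symbol too, so Prdx1, a peroxiredoxin that reduces hydrogen peroxide, has no value here.

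The 12 Affymetrix Rat230_2 arrays fell into 4 groups of 3: SNSCfenhua (differentiated cells of spinal cord), SNSC (proliferative cells of spinal cord), BNSCfenhua (differentiated cells of brain) and BNSC (proliferative cells of brain). The donors were Sprague Dawley rats at postnatal days 3 to 5, and "fenhua" in the titles is the romanised Chinese word for differentiation. The sources used here do not say how the cells were differentiated, for how long, or whether the 3 arrays of 1 group stand for separate cultures, so p-values measure only the spread between arrays, which may be technical. Each level is a log2 signal of a probe set, a group of short probes near the 3' end of a transcript. A difference of 1 on this scale is a factor of 2, and levels of different probe sets are not comparable. A probe set was called changed when its adjusted p from limma, over 20834 probe sets tested, was under 0.05.

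NRF2, the protein of Nfe2l2, is a transcription factor that KEAP1 holds back by marking it for degradation in unstressed cells. Under oxidative or electrophilic stress it escapes, enters the nucleus and, paired with a small MAF protein, binds antioxidant response elements near genes of glutathione synthesis, of the thioredoxin system and of quinone and haem breakdown. Its activity is thus set largely at the level of protein, which arrays do not measure. In the nervous system this response is best known from astrocytes, which supply glutathione precursors to neurons.

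The promoters are shown because of glutamate-cysteine ligase, the first enzyme of glutathione synthesis. It is built of a catalytic subunit (Gclc) and a modifier subunit (Gclm). In the data below their transcripts moved apart in spinal cord, while in brain both pointed down. RefSeq windows on the GRCr8 assembly, running from 250 bases before to 50 bases after a transcript start, were available for 7 of the 9 genes, in 8 windows. They were searched on both strands for the core of the antioxidant response element, TGACNNNGC, which 12.1% of all 33469 rat windows hold, and for the related AP-1 type motif TGANTCA, which 7.33% hold. The whole windows of Gclc and Gclm are printed first, 5' to 3' on the gene's strand, followed by the stretches around matches in Nfe2l2, Srxn1 and Txnrd1. Capitals mark the matches.
Gclc (chr8:87510226-87510525, plus strand): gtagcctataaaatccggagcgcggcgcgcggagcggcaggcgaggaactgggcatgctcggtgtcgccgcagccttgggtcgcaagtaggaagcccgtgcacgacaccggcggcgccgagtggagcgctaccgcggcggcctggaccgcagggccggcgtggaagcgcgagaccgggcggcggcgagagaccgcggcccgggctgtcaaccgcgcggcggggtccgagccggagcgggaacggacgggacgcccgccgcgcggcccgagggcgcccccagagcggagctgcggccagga
Gclm (chr2:213031885-213032184, plus strand): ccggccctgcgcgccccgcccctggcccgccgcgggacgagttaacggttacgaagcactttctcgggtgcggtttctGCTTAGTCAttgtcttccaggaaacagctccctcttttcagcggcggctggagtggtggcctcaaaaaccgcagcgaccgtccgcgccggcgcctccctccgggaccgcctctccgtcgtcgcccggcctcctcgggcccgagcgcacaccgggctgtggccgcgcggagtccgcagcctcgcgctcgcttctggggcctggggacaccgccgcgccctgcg
Nfe2l2 (chr3:81028950-81028986, minus strand): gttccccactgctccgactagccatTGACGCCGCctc
Srxn1 (chr3:161064725-161064838, plus strand): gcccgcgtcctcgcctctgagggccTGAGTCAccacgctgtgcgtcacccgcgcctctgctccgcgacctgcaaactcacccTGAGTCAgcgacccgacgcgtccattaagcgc
Txnrd1 (chr7:22755949-22756007, minus strand): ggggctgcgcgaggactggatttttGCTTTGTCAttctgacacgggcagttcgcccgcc

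The Gclm window held the core on the opposite strand, starting 172 bases before the transcript start, and the Gclc window held neither motif. Nfe2l2 had a core match on its own strand, 39 bases after the start. Txnrd1 had one on the opposite strand, 78 bases before the start of one of its windows, and none in its other window. Srxn1 had a pair of AP-1 type matches, 62 and 5 bases before the start, and Nqo1 had no match of either kind. Cores matched in 4 of the 8 windows, Prdx1's among them, where an AP-1 type match overlaps it. A match is a description of letters and not of a bound site, and elements farther from the start lie outside these windows.

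Array medians ran from 6.88 to 7.23, and 11 of the 12 probe sets passed the filter on low values, the exception being the third Srxn1 probe set at 1.32 to 5.20. SNSC replicate 1 stood apart: its beta globin (Hbb) signal was 12.36, against 5.61 and 3.01 on the other SNSC arrays, and it was the highest SNSC array for 8 of the 11 tested antioxidant probe sets. A group is called dim for a gene where all its arrays lie under their own 40th percentiles (5.91 to 6.41), and a fold against such a group is given as a lower bound. Markers of stem and progenitor cells were not dim for 8 to 10 of 10 measured genes in every group, with Hes5 dim in all but BNSCfenhua. Markers of other cells moved with the groups as well, as described after the differentiation results.

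**Figure D1:**
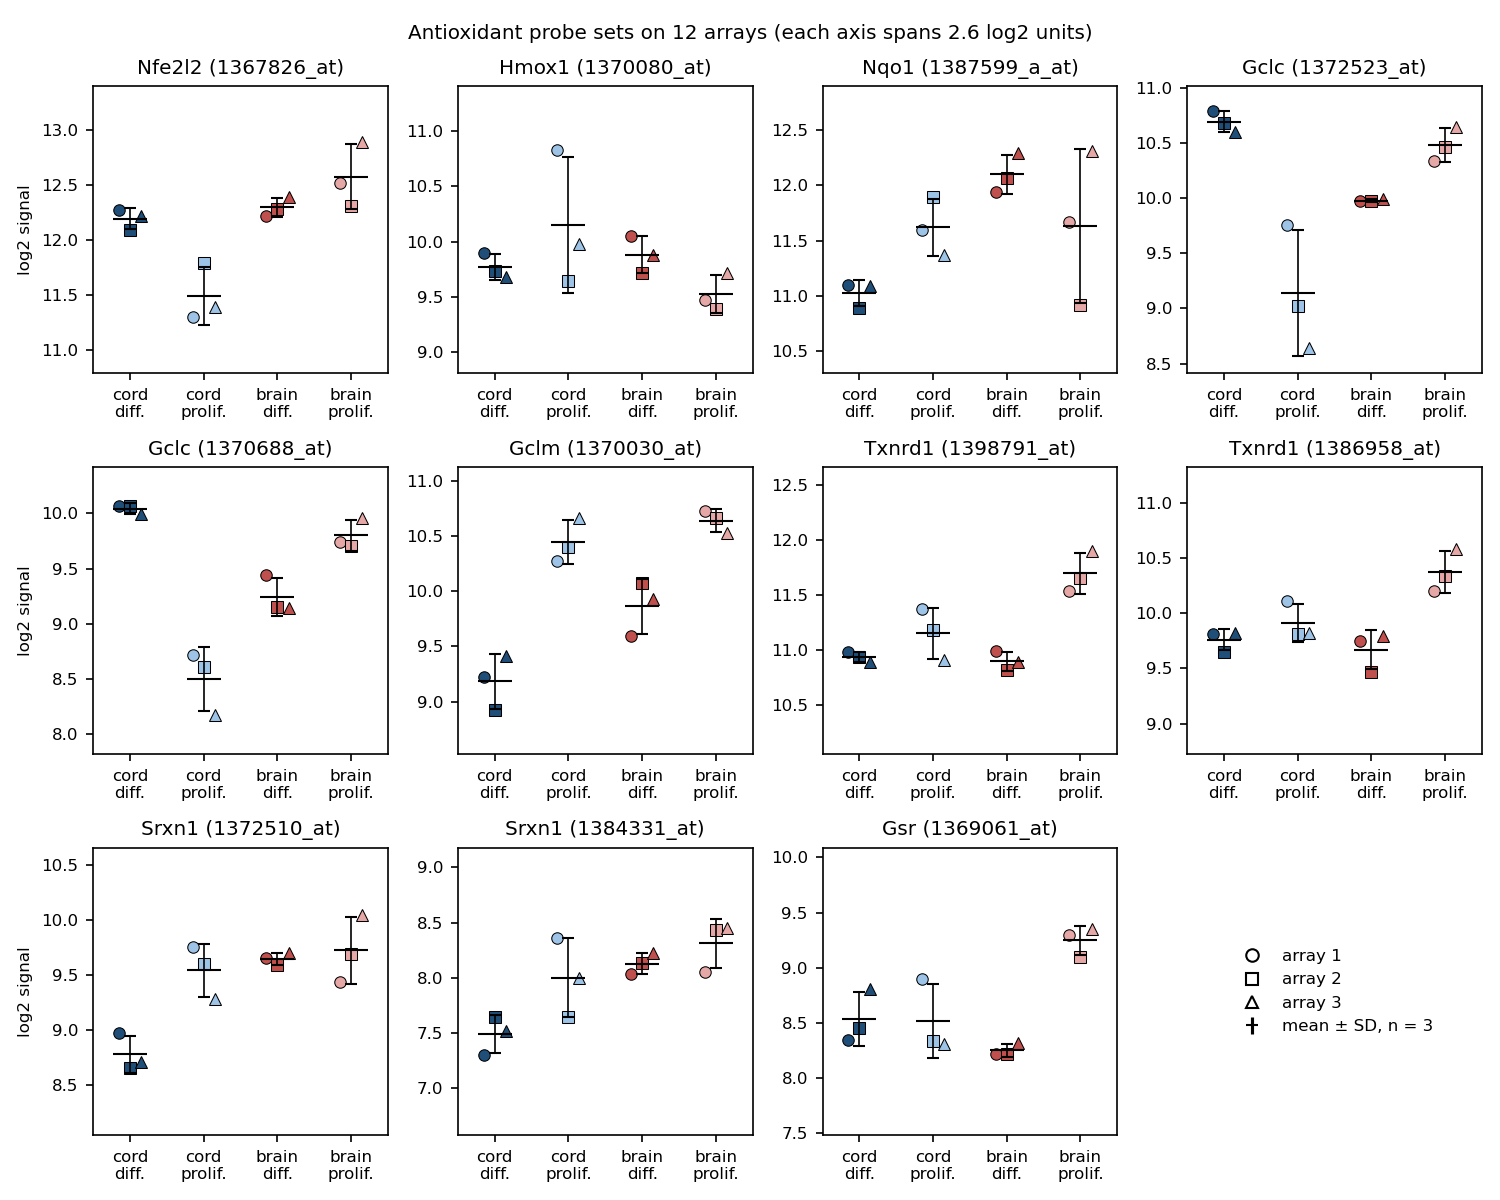
Log2 signal of each of the 11 tested antioxidant probe sets (one panel each; vertical axes differ) on the 12 arrays, with differentiated (diff.) and proliferative (prolif.) spinal cord groups left of the brain groups; points are arrays, horizontal lines group means and error bars SD (n = 3). Both Gclc probe sets are lowest on the proliferative spinal cord arrays (8.17 to 9.76), while Gclm is lowest on the differentiated spinal cord arrays (8.92 to 9.41).

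The first question was what differentiation did in spinal cord cultures. There the transcripts of the 2 subunits of glutamate-cysteine ligase went opposite ways: Gclc was higher and Gclm lower in differentiated than in proliferative cells. Nfe2l2 itself was higher, Srxn1 was lower, and Txnrd1, Gsr, Nqo1 and Hmox1 did not pass the test. In numbers of probe sets, 3 of 11 rose and 3 fell, against a background of 18.3% rising and 22% falling among all probe sets tested. In bulk RNA such as this, fewer cells of a type and less transcript per cell cannot be told apart.

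Gclc, the catalytic subunit, read 10.79, 10.68 and 10.60 on the SNSCfenhua arrays, against 9.76, 9.02 and 8.64 on the SNSC arrays, by probe set 1372523_at. Its other probe set, 1370688_at, read 10.07, 10.07 and 9.99 in SNSCfenhua, against 8.72, 8.61 and 8.17 in SNSC. In both, every differentiated array lay above every proliferative one. The change was 1.55 on the log2 scale, 2.92-fold, in each probe set (95% interval 1.10 to 1.99, adjusted p = 4.72e-05, and 1.23 to 1.86, adjusted p = 2.6e-06). Without SNSC replicate 1 it was 1.86 and 1.66.

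Gclm, the modifier subunit, which raises the enzyme's affinity for glutamate, read 9.22, 8.92 and 9.41 on the SNSCfenhua arrays, against 10.27, 10.40 and 10.66 on the SNSC arrays. Here the differentiated arrays were the low ones, again with no overlap. The level fell by 1.26 on the log2 scale, or 2.39-fold (95% interval -1.59 to -0.93, adjusted p = 2.39e-05). The intervals of Gclc and Gclm thus lay on opposite sides of 0.

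Nfe2l2, the gene of NRF2, read 12.27, 12.09 and 12.22 in SNSCfenhua, against 11.30, 11.79 and 11.39 in SNSC. The differentiated arrays were all higher, and the rise was 0.70 on the log2 scale, 1.63-fold (95% interval 0.39 to 1.02, adjusted p = 0.00162). Srxn1, sulfiredoxin, which repairs over-oxidised peroxiredoxins, moved the other way. Its probe set 1372510_at read 8.97, 8.66 and 8.71 in SNSCfenhua, against 9.75, 9.60 and 9.28 in SNSC, a fall of 1.70-fold (adjusted p = 0.00177). The second Srxn1 probe set, 1384331_at, read 7.30, 7.64 and 7.52 in SNSCfenhua, against 8.36, 7.64 and 8.0 in SNSC, and its call (-0.51, adjusted p = 0.049) was close to the threshold. It was lost under 15 of 18 other settings, among them leaving out any 1 array except BNSC replicate 1 or SNSC replicate 2. Without SNSC replicate 1 the value was -0.33 (adjusted p = 0.183).

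The reductases of the glutathione and thioredoxin systems did not pass the test in spinal cord. Gsr, glutathione reductase, which regenerates reduced glutathione with NADPH, read 8.35, 8.45 and 8.81 in SNSCfenhua, against 8.90, 8.34 and 8.31 in SNSC. These arrays overlapped, and the difference was 0.02 (95% interval -0.36 to 0.39, adjusted p = 0.944). Txnrd1, the cytosolic thioredoxin reductase, differed by -0.22 and -0.16 in its probe sets (adjusted p = 0.174 and 0.383), and the first was -0.34 without SNSC replicate 3 and -0.11 without SNSC replicate 1 (adjusted p = 0.0386 and 0.488). Nqo1, a quinone reductase often used as a readout of NRF2 activity, read 11.10, 10.89 and 11.09 in SNSCfenhua, against 11.60, 11.89 and 11.37 in SNSC. Its groups did not overlap, yet the difference of -0.59 did not pass (95% interval -1.13 to -0.04, adjusted p = 0.0805). In the fits without BNSC replicate 2 or 3 the same -0.59 had an adjusted p of 0.0135 or 0.0186. Hmox1, heme oxygenase 1, which breaks down haem, read 9.90, 9.73 and 9.68 in SNSCfenhua, against 10.83, 9.64 and 9.98 in SNSC, a difference of -0.38 (adjusted p = 0.202). One array carried this value, which was -0.04 without SNSC replicate 1 and -0.64 without SNSC replicate 2 (adjusted p = 0.841 and 0.0286).

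The second question was what differentiation did in brain cultures. No antioxidant gene was called higher in differentiated brain cells. Gsr, Txnrd1, Gclm and, by 1 of its 2 probe sets, Gclc were lower, so that here both subunits of glutamate-cysteine ligase pointed down. Of 11 probe sets 0 rose and 5 fell, against a background of 23.7% rising and 23.1% falling.

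Gsr read 8.22, 8.22 and 8.32 on the BNSCfenhua arrays, against 9.30, 9.10 and 9.35 on the BNSC arrays. The gap between the groups was far wider than the spread within either, and the fall was 2.0-fold (-1.0, 95% interval -1.37 to -0.62, adjusted p = 0.000365). Txnrd1 read 10.99, 10.82 and 10.89 in BNSCfenhua, against 11.54, 11.65 and 11.90 in BNSC, by probe set 1398791_at. Its other probe set, 1386958_at, read 9.75, 9.47 and 9.79 in BNSCfenhua, against 10.20, 10.34 and 10.58 in BNSC. Neither overlapped between the groups, and the falls were 1.74-fold and 1.63-fold (adjusted p = 0.000114 and 0.000674).

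Gclm read 9.59, 10.07 and 9.93 in BNSCfenhua, against 10.73, 10.66 and 10.53 in BNSC. It fell by 0.78 on the log2 scale, 1.72-fold (95% interval -1.11 to -0.45, adjusted p = 0.000978). Gclc fell 1.47-fold by probe set 1370688_at, which read 9.44, 9.15 and 9.14 in BNSCfenhua, against 9.74, 9.70 and 9.96 in BNSC (adjusted p = 0.00674). Probe set 1372523_at of the same gene was at 9.97, 9.97 and 9.99 in BNSCfenhua, against 10.34, 10.46 and 10.64 in BNSC, without overlap, but its difference of -0.50 did not pass (adjusted p = 0.0585). The model shares 1 error estimate over all arrays, and in the fits without SNSC replicate 1 or 3 the same difference had an adjusted p of 0.00198 or 0.0196.

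The remaining members did not pass in brain. Nfe2l2 read 12.22, 12.28 and 12.39 in BNSCfenhua, against 12.52, 12.31 and 12.89 in BNSC (-0.28, adjusted p = 0.136). Nqo1 read 11.94, 12.07 and 12.29 in BNSCfenhua, against 11.67, 10.92 and 12.31 in BNSC, the BNSC arrays being the most scattered of any group of this gene (+0.47, adjusted p = 0.15). The Nqo1 difference was 0.80 without BNSC replicate 3 and 0.11 without BNSC replicate 2 (adjusted p = 0.00578 and 0.673). Hmox1 differed by 0.36 (adjusted p = 0.215), and passed only in the fit without SNSC replicate 1, at an unchanged 0.36 (adjusted p = 0.0328). That of Nfe2l2 was -0.41 without BNSC replicate 2 and -0.12 without BNSC replicate 3 (adjusted p = 0.0387 and 0.514). The Srxn1 probe sets differed by -0.08 and -0.19 (adjusted p = 0.72 and 0.462).

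**Figure D2:**
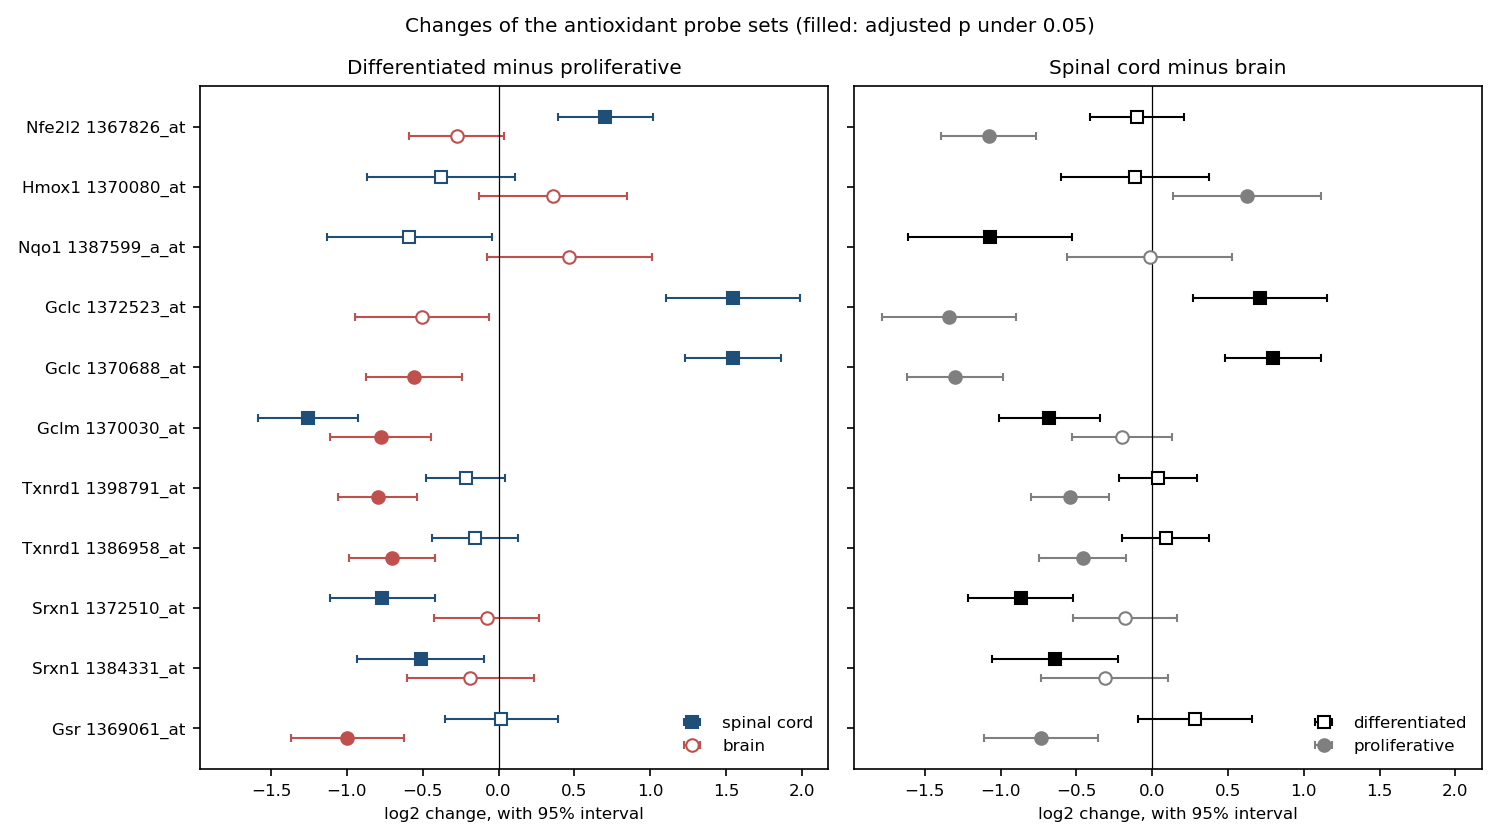
Change of each antioxidant probe set on the log2 scale with its 95% interval from limma, for differentiated minus proliferative cells (spinal cord above brain in each row) and for spinal cord minus brain (differentiated above proliferative in each row); filled points passed an adjusted p of 0.05. The Gclc changes with differentiation sit at 1.55 in spinal cord and at -0.50 and -0.56 in brain.

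Whether the tissues responded differently was tested directly, as the spinal cord change minus the brain change. Gclc, Gsr, Nfe2l2 and Txnrd1 had a more positive response in spinal cord, and Nqo1 and Srxn1 a more negative one. For Gclc the difference was 2.05 and 2.10 on the log2 scale (adjusted p = 8.64e-05 and 3.75e-06), the widest of the set. Gsr differed by 1.02 (95% interval 0.49 to 1.55, adjusted p = 0.0047) and Nfe2l2 by 0.98 (0.54 to 1.42, adjusted p = 0.00179). In all, 6 of 11 probe sets had a positive and 2 a negative difference, against a background of 18.8% and 21.7%.

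Txnrd1 differed by 0.58 and 0.55 (adjusted p = 0.0147 and 0.0314), and the second of these calls was lost without BNSC replicate 3, BNSCfenhua replicate 2, SNSC replicate 2 or 3, or SNSCfenhua replicate 1 or 3 (0.44 to 0.52, adjusted p 0.067 to 0.0871). Nqo1 differed by -1.05 (adjusted p = 0.03), a call lost without BNSCfenhua replicate 2 or 3, SNSC replicate 2 or SNSCfenhua replicate 2 (-0.92 to -1.07, adjusted p 0.0519 to 0.0732). It held without BNSC replicate 2 at a smaller -0.70 (adjusted p = 0.0431). Srxn1 differed by -0.69 by probe set 1372510_at (adjusted p = 0.0261), lost without BNSC replicate 1, BNSCfenhua replicate 3, SNSC replicate 2, or SNSCfenhua replicate 2 or 3 (-0.55 to -0.66, adjusted p 0.051 to 0.0696). These 3 calls were therefore the least secure of the comparison. Gclm, which fell in both tissues, did not pass (-0.48, 95% interval -0.95 to -0.01, adjusted p = 0.0971), nor did Hmox1 (-0.74, adjusted p = 0.0813) or Srxn1 by 1384331_at (-0.33, adjusted p = 0.369). Gclm passed without BNSCfenhua replicate 1 (-0.61, adjusted p = 0.0369) and Hmox1 without SNSC replicate 2 (-0.995, adjusted p = 0.0128). Without SNSC replicate 1, the array with the high globin signal, the Hmox1 difference of responses was -0.40 (adjusted p = 0.11).

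The deposited values set each array to the same trimmed mean. Subtracting each array's median instead shifted all probe sets together, by -0.15 in brain differentiation, by -0.21 in SNSC against BNSC and by 0.23 in the difference of responses, and by under 0.1 in the other contrasts. The share of higher calls among all calls was then 38.2% in brain differentiation, beside 50.6% on the deposited scale, 31.7% beside 51.2% in SNSC against BNSC, and 61.3% beside 46.4% in the difference of responses. On that scale both Gclc probe sets passed as lower in brain (-0.66 by 1372523_at, adjusted p = 0.0232), and the differences of responses of Nqo1 (-0.82) and Srxn1 (-0.46) did not pass (adjusted p = 0.112 and 0.196).

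Over the 8 genes, each by its brightest probe set, the median change with differentiation was -0.30 in spinal cord and -0.39 in brain, beside -0.04 and -0.06 over all 11218 genes tested. In spinal cord 2 of the 8 genes rose and 2 fell, against 20.9% and 22.6% of all genes. In brain 0 rose and 3 fell, against 24.1% and 28.5%. A median over so few genes hides that Gclc and Gclm stood at opposite ends of it in spinal cord.

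Cell type markers moved with the same contrasts, and their part in the results was not tested. For each marker list the linear signals of its genes were summed on each array and the log2 of the sum taken, so bright genes weigh most. The sum of 12 astrocyte genes was 15.84 to 16.05 in SNSCfenhua and 14.92 to 15.67 in SNSC, and 16.99 to 17.09 in BNSCfenhua and 14.92 to 15.28 in BNSC. In spinal cord its genes went both ways: 8 had a higher mean in SNSCfenhua than in SNSC, among them the bright Gja1 (14.92 in SNSCfenhua, 12.80 in SNSC), and 4 a lower one, among them Gfap (11.40 in SNSCfenhua, 12.80 in SNSC) and S100b (11.80 in SNSCfenhua, 13.20 in SNSC).

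The sum of 11 neuron genes was 11.70 to 12.10 in SNSCfenhua and 13.41 to 13.52 in SNSC, and 13.17 to 13.37 in BNSCfenhua and 13.14 to 13.98 in BNSC. All 11 had a lower mean in SNSCfenhua than in SNSC, Dcx at 6.20 in SNSCfenhua and 9.81 in SNSC. Thus the neuron sum was lower in SNSCfenhua than in SNSC and than in BNSCfenhua without overlap, and Gclm and Srxn1 1372510_at were lower in both contrasts. Gclm was lower in BNSCfenhua than in BNSC as well (-0.78), where the neuron sums overlapped. There 9 of the 11 neuron genes had a lower mean in BNSCfenhua. The part of neurons in these levels was not tested. The sum of 11 genes of fibroblasts, meninges and mural cells was 16.81 to 17.00 in SNSCfenhua and 14.87 to 15.82 in SNSC, while in brain it was 12.20 to 12.44 in BNSCfenhua and 11.93 to 12.63 in BNSC.

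Oligodendrocyte genes, 9 of them, summed to 15.74 to 15.96 in SNSCfenhua and 15.63 to 15.76 in SNSC, and to 15.68 to 15.93 in BNSCfenhua and 11.64 to 12.73 in BNSC. In spinal cord 3 of these genes had a higher mean in SNSCfenhua than in SNSC, and 6 a lower one. All 9 had a higher mean in BNSCfenhua than in BNSC. Microglia genes, 13 of them, summed to 12.18 to 12.24 in SNSCfenhua and 12.30 to 13.12 in SNSC, and to 10.87 to 11.04 in BNSCfenhua and 9.72 to 9.99 in BNSC, with Cx3cr1 and Itgam dim in every group. Fibroblast, oligodendrocyte and microglia sums were thus all higher in SNSC than in BNSC without overlap. The 10 stem and progenitor genes summed to 15.32 to 15.39 in SNSCfenhua and 15.44 to 15.52 in SNSC, and to 15.98 to 16.20 in BNSCfenhua and 15.68 to 15.93 in BNSC. Of these genes 9 had a lower mean in SNSCfenhua than in SNSC, and 1 a higher one. In BNSCfenhua 6 had a higher mean than in BNSC and 4 a lower one. Nes had the lower mean in the differentiated cells of both tissues. Endothelial genes, 5 of them, stayed low, at 6.69 to 8.49 over all arrays. The 3' minus 5' signal of beta actin, a sign of RNA quality, was 0.99 to 1.01 in SNSCfenhua and 0.69 to 0.99 in SNSC. It was 0.73 to 0.81 in BNSCfenhua and 0.77 to 0.84 in BNSC, so SNSCfenhua lay above BNSCfenhua without overlap. That of GAPDH did not separate these 2 groups, at -0.079 to 0.063 in SNSCfenhua and -0.13 to 0.071 in BNSCfenhua. It was -0.010 to 0.098 in SNSC and 0.083 to 0.13 in BNSC, so BNSC lay above BNSCfenhua without overlap.

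The third question was how spinal cord and brain differed within each state. Among proliferative cells the spinal cord cultures had less Nfe2l2, Gclc, Gsr and Txnrd1 than the brain cultures, in 6 of 11 probe sets, and 1 probe set, that of Hmox1, was higher. The background was 18.5% lower and 19.4% higher. These are the same proliferative arrays that entered the differentiation contrasts, so the 2 sets of values are not independent.

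Nfe2l2 at 11.30, 11.79 and 11.39 in SNSC lay below every BNSC array (12.52, 12.31 and 12.89), a 2.11-fold difference (-1.08, 95% interval -1.39 to -0.77, adjusted p = 6.27e-05). Gclc was 2.53-fold and 2.47-fold lower in SNSC than in BNSC (adjusted p = 0.000188 and 1.34e-05). Gsr was 1.66-fold lower (adjusted p = 0.00454), although SNSC replicate 1, at 8.90, came close to the BNSC range of 9.10 to 9.35. Without that array the Gsr difference was -0.93, against -0.73 with it. Txnrd1 was 1.46-fold and 1.38-fold lower (adjusted p = 0.00302 and 0.0145), the second call being lost without BNSC replicate 3 or SNSC replicate 2 or 3 (-0.35 to -0.41, adjusted p 0.054 to 0.0633). Gclm (-0.20, adjusted p = 0.34), both Srxn1 probe sets (-0.18 and -0.31) and Nqo1 (-0.02, adjusted p = 0.969; 0.069 with quantile normalization) did not pass.

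Hmox1 read 10.83, 9.64 and 9.98 in SNSC, against 9.47, 9.39 and 9.72 in BNSC. The groups overlapped, since SNSC replicate 2 lay below BNSC replicate 3. The difference of 0.63 passed narrowly (95% interval 0.14 to 1.11, adjusted p = 0.0427). It was 0.29 without SNSC replicate 1 (adjusted p = 0.13), the array with the high globin signal, and the call was lost under 13 of 18 other settings. Among the single arrays whose removal ended it were all 6 differentiated ones, SNSC replicates 1 and 3 and BNSC replicates 1 and 2. The next highest Hbb signal, 7.68 on BNSC replicate 1, went with an Hmox1 level of 9.47, near the low end of all arrays. The part of red blood cells in the Hmox1 level was not tested.

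**Figure D3:**
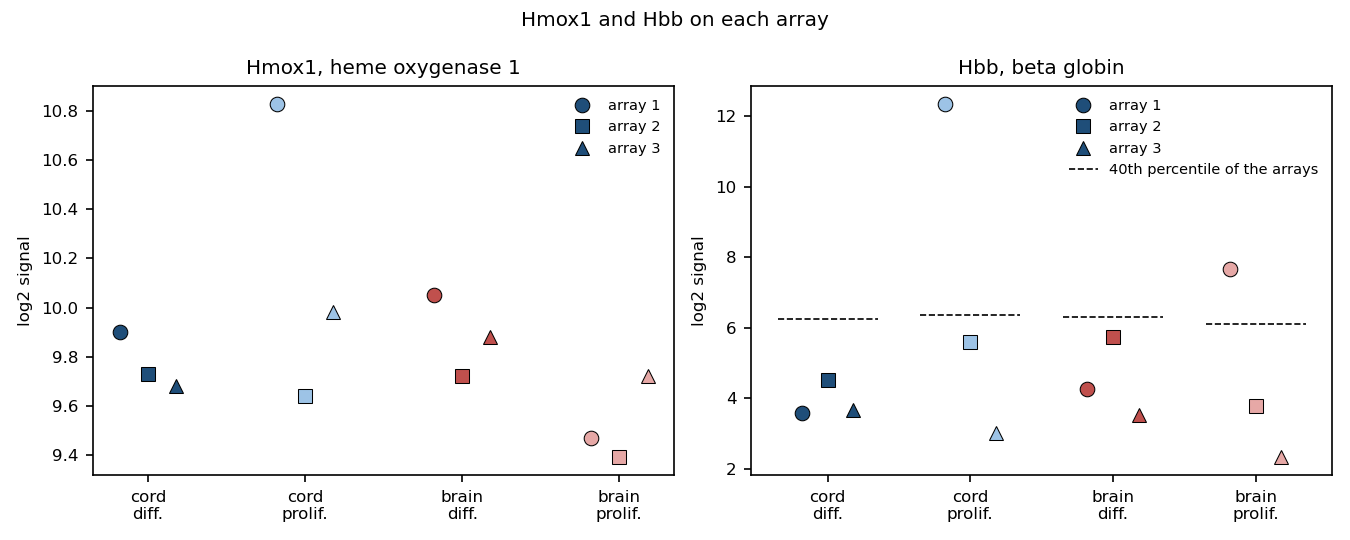
Log2 signal of Hmox1 (left) and of beta globin, Hbb (right), on each array, with differentiated (diff.) and proliferative (prolif.) spinal cord groups left of brain; symbols mark the replicate and dashed lines the mean 40th percentile of each group's arrays. SNSC replicate 1 has the highest value of both, 10.83 for Hmox1 and 12.36 for Hbb.

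Among differentiated cells the picture changed: Gclc was higher in spinal cord than in brain, and Nqo1, Gclm and Srxn1 were lower. Of 11 probe sets 2 were higher and 4 lower, against a background of 18.5% and 22.9%. Gclc was 1.64-fold and 1.74-fold higher in SNSCfenhua (adjusted p = 0.0129 and 0.000605), with every spinal cord array above every brain array. Nqo1, at 11.10, 10.89 and 11.09 in SNSCfenhua against 11.94, 12.07 and 12.29 in BNSCfenhua, was 2.10-fold lower (-1.07, 95% interval -1.61 to -0.53, adjusted p = 0.00378). This was the only contrast of 2 groups in which Nqo1 passed.

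Gclm was 1.60-fold lower in SNSCfenhua than in BNSCfenhua (adjusted p = 0.00292). Srxn1 was 1.83-fold lower by 1372510_at (adjusted p = 0.000627) and 1.56-fold by 1384331_at (adjusted p = 0.0167), and 1384331_at lost its call without BNSCfenhua replicate 3 or SNSCfenhua replicate 1 (-0.59 and -0.55, adjusted p = 0.0609 and 0.0683). Nfe2l2, Hmox1, Txnrd1 and Gsr did not pass, with differences of -0.10, -0.11, 0.04 and 0.09, and 0.28 (adjusted p 0.218 to 0.83). The Nfe2l2 interval was -0.41 to 0.21.

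By gene, 1 of the 8 was higher and 4 lower in SNSC than in BNSC, against 21.2% and 22.8% of all genes. In SNSCfenhua against BNSCfenhua 1 was higher and 3 lower, against 22.3% and 22.4%. The median differences were -0.37 in proliferative and -0.11 in differentiated cells, beside -0.04 and -0.004 over all genes.

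Across the 4 groups Gclc ran in the order SNSCfenhua (10.69 ± 0.09, SD, n = 3), BNSC (10.48 ± 0.15), BNSCfenhua (9.98 ± 0.0083) and SNSC (9.14 ± 0.57) by 1372523_at, and in the same order by 1370688_at. By 1372523_at SNSCfenhua and BNSC overlapped, with a BNSC array at 10.64 above the SNSCfenhua array at 10.60. By 1370688_at they did not, at 9.99 to 10.07 in SNSCfenhua and 9.70 to 9.96 in BNSC. This pair of groups was not tested. Gclm ran in another order, with BNSC (10.64 ± 0.10) and SNSC (10.44 ± 0.20) overlapping at the top, then BNSCfenhua (9.87 ± 0.25) and SNSCfenhua (9.19 ± 0.25). Nfe2l2 was lowest in SNSC (11.49 ± 0.26), and its other groups lay between 12.19 and 12.57, with SNSCfenhua and BNSCfenhua overlapping.

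The genes whose 4 centred group means lay nearest to those of a member were sought among 11210 other genes, as a description with no test. Only members whose group means spanned at least 1 were used. For Gclc the nearest were Vcl, Smpdl3b and Tatdn2, with root mean square differences of 0.0404, 0.118 and 0.122 on the log2 scale. For Gclm they were Syp, B4galnt4 and Basp1 (0.039, 0.0479 and 0.0692), and for Nqo1 Pierce2, Lgals3 and Bbs1 (0.0395, 0.0436 and 0.0536). For Nfe2l2 they were Insl3, Efnb1 and Svil (0.0554, 0.0697 and 0.0935), of which Insl3 was near or below the arrays' 40th percentiles, at group means of 4.83 to 5.87.

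The wider antioxidant machinery was read from 94 further genes, of which 87 had a probe set and 82 were tested. In spinal cord differentiation 33 of the 82 rose and 7 fell, 40.2% and 8.54%, beside 20.9% and 22.6% of all genes, with a median change of 0.31 (0.25 with dim groups at their floor). In brain 28 rose and 19 fell, 34.1% and 23.2%, beside 24.1% and 28.5%, with a median of 0.15 (0.17). In SNSC against BNSC 20 were higher and 20 lower, 24.4% each way, near the 21.2% and 22.8% of all genes. In SNSCfenhua against BNSCfenhua 35 were higher and 13 lower, 42.7% and 15.9%, beside 22.3% and 22.4%. Of the 82 genes 15 had a dim group, and 4 (Gstm2, Akr7a3, Aldh3a1 and Mt1) were above the 40th percentiles on more than 1 array in a single group only. Without these 4, a choice made after seeing the data, 32 of 78 rose and 7 fell in spinal cord, and 28 rose and 19 fell in brain. In SNSC against BNSC 17 were then higher and 20 lower, and in SNSCfenhua against BNSCfenhua 33 were higher and 13 lower. The 20 lower in SNSC take in Aldh1a1, whose means of 1.57 in SNSC and 4.68 in BNSC both lay under the floor. The shares of all genes given here, 20.9% and 22.6% in spinal cord and 24.1% and 28.5% in brain, are also the background of the counts by functional group that follow, each of which covers few genes. Members of gene families such as the glutathione transferases can share probes, so their values are uncertain.

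In the group of NRF2 control, which takes in its small MAF partners and its relative Nfe2l1, 8 genes were tested. Of these 1 rose and 2 fell in spinal cord differentiation, and 1 rose and 4 fell in brain. The falls in brain include Rbx1 by its brightest probe set (-0.63, adjusted p = 0.000251). Another Rbx1 probe set rose in brain (0.35, adjusted p = 0.00681). Keap1, the repressor of NRF2, did not pass in any contrast by its brightest probe set (0.02 in brain and -0.21 in spinal cord differentiation, adjusted p = 0.939 and 0.236), and was 1.69-fold lower in SNSC than in BNSC by another (adjusted p = 0.0203). Bach1, a repressor that competes for the same elements, was dim and not tested. Sqstm1, p62, which draws KEAP1 into autophagy, fell 1.35-fold in spinal cord differentiation and rose 1.48-fold in brain (adjusted p = 0.036 and 0.00784, and 0.00222 for the difference), though its other probe set passed in neither. Nfe2l1, a relative of Nfe2l2, rose 1.53-fold in spinal cord (adjusted p = 0.00278), though another of its probe sets did not pass (0.32, adjusted p = 0.101). Cul3, the scaffold of the ligase that KEAP1 serves, fell 1.35-fold in brain by its brightest probe set (adjusted p = 0.000408), which did not pass in spinal cord (adjusted p = 0.959). By probe set 1393343_at Cul3 fell 2.02-fold in spinal cord and 1.64-fold in brain (adjusted p = 9.24e-06 and 0.000159), and its remaining probe set passed in neither. In brain Maff, a small MAF protein, fell at least 3.45-fold. Its adjusted p of 1.26e-05 is for the fitted change, which uses signal under the floor.

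Around the ligase, the other steps of glutathione synthesis did not follow one course. Slc7a11, which imports cystine for it, rose in both tissues, 1.90-fold in spinal cord and 5.09-fold in brain (adjusted p = 0.00194 and 6.14e-07). Gss, glutathione synthetase, the next enzyme after the ligase, was 1.31-fold higher in spinal cord differentiation and 3.44-fold lower in brain (adjusted p = 0.0304 and 2.2e-07), a difference of 2.17 on the log2 scale (adjusted p = 1.1e-06). Gss thus rose in spinal cord and fell in brain, as did Gclc by probe set 1370688_at. Among genes of the glutathione peroxidase family, Gpx8 and Gpx7, peroxidases of the endoplasmic reticulum, rose 2.90-fold and 3.06-fold in spinal cord (adjusted p = 1.07e-06 and 8.18e-06). Gpx2 fell at least 3.38-fold in brain. Its adjusted p of 5.28e-07 is for the fitted change, which uses signal under the floor. Glrx, glutaredoxin, rose 3.45-fold in brain (adjusted p = 5.88e-08). In the whole group of glutathione synthesis and use, 13 tested genes, 7 rose and 3 fell in spinal cord, and 3 rose and 5 fell in brain.

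Of 14 glutathione transferases 5 rose and 1 fell in spinal cord, 35.7% and 7.14% beside 20.9% and 22.6% of all genes. The 5 rises include Gstm2, which entered the test only because it was high in SNSCfenhua, so its share in this count carries no weight. In brain 6 rose and 3 fell, 42.9% and 21.4% beside 24.1% and 28.5%. Gstm2 read 10.07, 10.28 and 10.13 in SNSCfenhua, against 6.11, 6.17 and 6.34 in SNSC, where 1 array was above its 40th percentile, and both brain groups were dim. It passed the filter on low values only through SNSCfenhua, so its difference is given as a bound with no test, at least 13.9-fold against the SNSC floor. Gsta1 rose 4.05-fold in spinal cord and 3.12-fold in brain (adjusted p = 3.33e-08 and 1.48e-07). Of 17 genes of quinone, aldehyde and xenobiotic handling, 9 rose and 0 fell in spinal cord, 52.9% and 0%, and 6 rose and 3 fell in brain, 35.3% and 17.6%. Nqo2, a relative of Nqo1 that uses another hydride donor, rose 2.71-fold in spinal cord (adjusted p = 3.92e-06), where Nqo1 itself did not pass. In brain Ptgr1, a reductase of reactive carbonyls, fell 8.86-fold and Akr1b8, an aldo-keto reductase, at least 10.6-fold (adjusted p = 2.51e-06 and 3.81e-07). The p-value of Akr1b8 is for the fitted change, which uses signal under the floor. Aldh1a1, a retinal dehydrogenase named after its values were seen, rose at least 25.6-fold in brain (adjusted p = 2.24e-05, also for the fitted change). In spinal cord it counts among the 9 rises, but its SNSCfenhua mean of 6.48 was close to the SNSC floor of 6.36. The bound there was 1.09-fold, and its p-value is left out because nearly all of the fitted change lies under the floor.

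**Figure D4:**
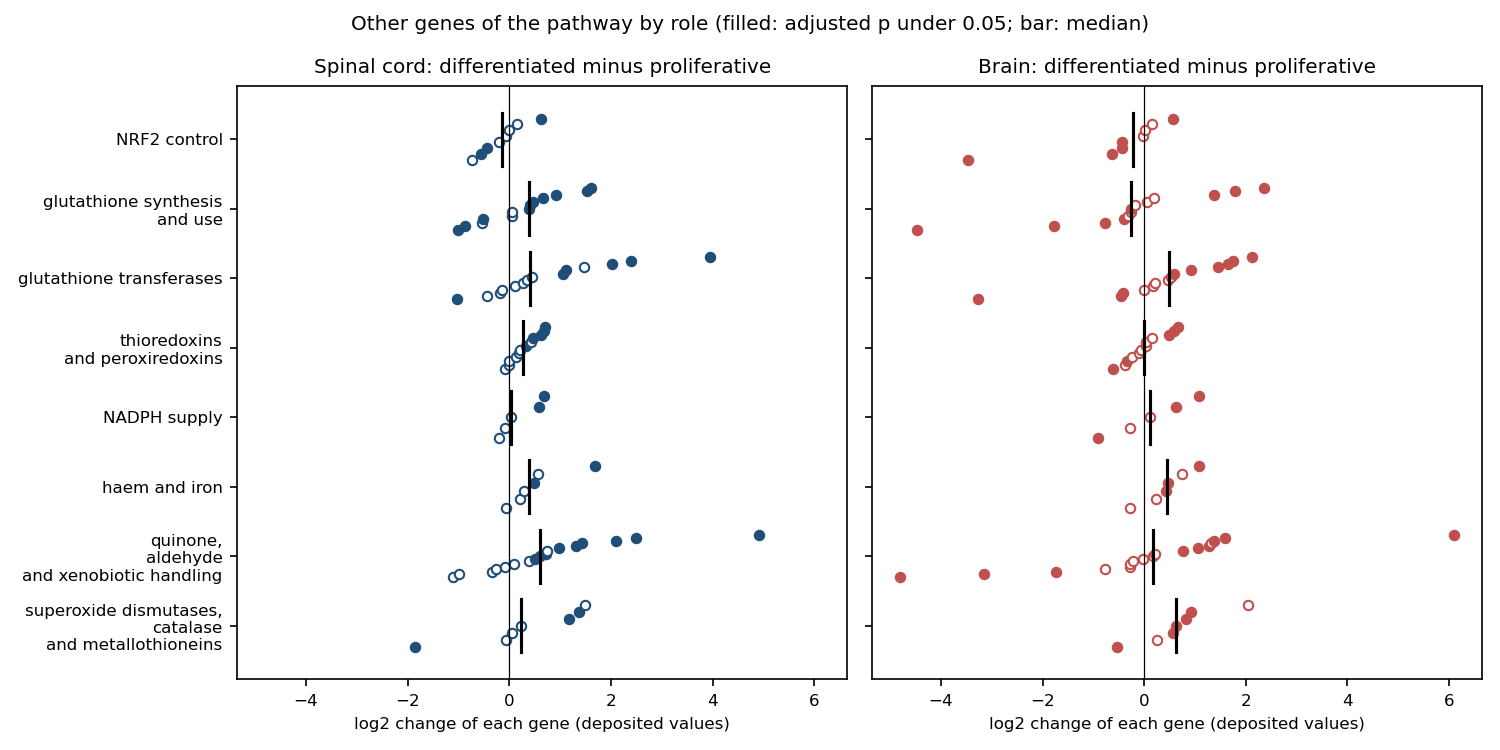
Log2 change with differentiation of each tested gene of the wider antioxidant list, by functional group, in spinal cord (left) and brain (right); filled points passed an adjusted p of 0.05 and values against dim groups are as fitted, not bounds. In spinal cord 33 of 82 genes rose and 7 fell, and in brain 28 rose and 19 fell.

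Thioredoxins, peroxiredoxins and sestrins, 12 genes in all, had 5 rises and 0 falls in spinal cord and 3 rises and 2 falls in brain. Txn1, the substrate of Txnrd1, fell 1.26-fold in brain (adjusted p = 0.0141) and did not pass in spinal cord (0.19, adjusted p = 0.146), and this difference passed (0.52, adjusted p = 0.00894). Prdx6 rose 1.54-fold in spinal cord (adjusted p = 0.00238), and Prdx3, of mitochondria, fell 1.53-fold in brain (adjusted p = 2.09e-05). Of the 5 tested genes that supply NADPH, which Gsr and Txnrd1 consume, 2 rose and 0 fell in spinal cord, and 2 rose and 1 fell in brain. Pgd, of the pentose phosphate pathway, rose 1.61-fold in spinal cord (adjusted p = 0.00115), and Tkt, of the same pathway, fell 1.87-fold in brain (adjusted p = 8.53e-05).

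Among 6 genes of haem and iron 2 rose in spinal cord and 3 in brain, with 0 falls in either. Fech, which inserts iron into protoporphyrin to form haem, rose 3.21-fold in spinal cord and 1.34-fold in brain (adjusted p = 2.63e-07 and 0.0132). Blvra, biliverdin reductase, which acts after Hmox1, rose 1.39-fold in each (adjusted p = 0.0418 and 0.0378). Of 7 superoxide dismutases, catalase and metallothioneins 2 rose and 1 fell in spinal cord, and 4 rose and 1 fell in brain. Sod2, the mitochondrial dismutase, rose 2.26-fold in spinal cord (adjusted p = 2.6e-05), and Mt3, the metallothionein of the brain, fell 3.61-fold there (adjusted p = 2.05e-07). Between differentiated cultures Mt3 was 13.0-fold lower in SNSCfenhua than in BNSCfenhua, and Cyp1b1, a cytochrome P450, was 80.3-fold higher (adjusted p = 4.08e-10 and 1.75e-09).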

How the data were processed

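RNA of 12 samples was measured on Affymetrix Rat230_2 arrays. Per the labels' protocols, total RNA was extracted with TRIZOL, purified on columns with DNase and labelled with biotin by a 3' in vitro transcription kit. The submitters' processing notes name MAS5 and affy, without versions. The authors deposited 1 log2 signal for each probe set and array. On the linear scale their mean, with 2% trimmed at each end, was 500 on every array, and no centring of genes had been done. No detection call was used here.

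From 31099 probe sets 57 controls were left out, and testing was limited to those above the array's own 40th percentile on 3 or more of the 12 arrays (20834 of 31042). The platform annotation gave 20826 probe sets 1 symbol, 436 several and 9780 none, and 20758 matched a gene of the GRCr8 RefSeq table by Entrez ID. The brightest probe set on average represented its gene. limma 3.58.1 in R 4.3.3 fitted a mean per group to all arrays (eBayes, trend included; residual degrees of freedom were 8), with Benjamini-Hochberg adjustment over all tested probe sets and a threshold of 0.05. The code was tested on simulated data. Where a group was dim, a fold bound sets the bright group's mean against the average of its counterpart's 40th percentiles. An adjusted p beside such a bound is that of the fitted change, not of the bound. The number of arrays limits precision. Figures were drawn in Python 3.11.15.

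The antioxidant genes, the wider list and the markers were chosen with earlier results of these data known. All antioxidant probe sets were named in each comparison. Of the wider list, up to 3 genes per functional group and contrast with the smallest adjusted p could be named, with Keap1, Bach1, Slc7a11, Sqstm1 and Txn1 in any case; their values in other contrasts are given beside these. Alternatives tried were median centring, quantile normalization, no filter, 64 added to the linear signal, no trend, a replicate block, each array left out and, for the wider list, the mean of a gene's probe sets.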

Additional observations from a re-analysis of the deposited data

Results flagged for a closer look

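The following 8 antioxidant probe sets were singled out because the change with differentiation differed between the tissues in limma's test of the difference itself (spinal cord change minus brain change, on the log2 scale). The difference was 2.05 for Gclc 1372523_at and 2.10 for Gclc 1370688_at, 1.02 for Gsr, 0.98 for Nfe2l2, and 0.58 and 0.55 for Txnrd1 1398791_at and 1386958_at. It was -1.05 for Nqo1 and -0.69 for Srxn1 1372510_at. In each case all 12 arrays entered the test. The Nqo1, Srxn1 and second Txnrd1 differences are the ones that some settings took over the threshold.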

How the results depend on the processing

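Of the 32 calls on antioxidant probe sets over the 5 comparisons, 25 held under all 18 other settings, and 7 were lost under at least 1: Hmox1 in SNSC against BNSC (13 settings), Srxn1 1384331_at in spinal cord differentiation (15) and between differentiated cultures (2), Txnrd1 1386958_at in SNSC against BNSC (3) and in the difference of responses (7), and the differences of responses of Nqo1 (6) and Srxn1 1372510_at (6). Signs turned only in differences that did not pass: with an array left out, Srxn1 1372510_at in brain differentiation ran between -0.22 and 0.080 (turned without BNSC replicate 3), and Gsr in spinal cord differentiation between -0.12 and 0.21 (turned without SNSC replicate 2 or 3 or SNSCfenhua replicate 3). Nqo1 in SNSC against BNSC ran between -0.37 and 0.32 (turned without BNSC replicate 1 or 3 or SNSC replicate 3), and was 0.069 with quantile normalization. Txnrd1 between differentiated cultures ran between -0.00078 and 0.082 by 1398791_at and between -0.013 and 0.15 by 1386958_at (turned without BNSCfenhua replicate 2). The causes were not tested.

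Among counts, antioxidant probe sets higher in SNSC than in BNSC numbered 0 with median centring, without the filter and without the trend, in place of 1, and 0 to 1 with an array left out. Antioxidant probe sets with a negative difference of responses numbered 0 with median centring and 1 without the trend, in place of 2, and 0 to 3 with an array left out. Those rising in brain numbered 0 to 1 with an array left out. All probe sets lower in SNSC than in BNSC numbered 6214 with median centring, in place of 3844. Wider-list genes with a negative difference of responses numbered 9 with median centring, in place of 14, and those falling in spinal cord 3 to 8 with an array left out, in place of 7.

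The arrays showed no sign of pairing by the replicate numbers in the titles, though the labels do not say whether equal numbers share a source. Over 18 pairs of equal number the deviations from group means correlated at -0.119 to 0.0479, and 0 of 12 arrays correlated best with their own number. With the replicate number as a block, 1 antioxidant call was lost, Srxn1 1384331_at in spinal cord differentiation (-0.51, adjusted p = 0.0726), and no count moved by over 1.5 times. Signals under the arrays' 40th percentiles have no reliable order, and 3 arrays a group limit all intervals.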
